A study of Mus musculus with 12 samples.

Results

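The genes described here are 10 genes of bone formation, out of 21755 protein-coding genes in the annotation used. They were taken as a list from general knowledge of bone: the regulators Sp7 and Atf4, the mineralisation genes Alpl and Phex, the matrix genes Spp1, Ibsp, Dmp1, Mepe and Bglap, and the osteocyte gene Sost. The rule that chose them uses no measured value, but the list was drawn up with earlier results of these data known. For each gene, all called peaks of 4 peak lists were read in its gene body and 20000 bp on each side (mm10 mouse genome, GENCODE M21 annotation), called its window below. The windows were 40964 to 293238 bp long, against a median of 57.4 kb over all protein-coding genes.

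The peaks came from chromatin immunoprecipitation followed by sequencing (ChIP-seq), which recovers the DNA wound on histones that carry a given mark. The cells were mesenchymal stem cells (MSCs) of wild-type male C57BL/6N mice, 3 to 5 months old. The labels describe them as MSCs from bone marrow, whereas the study's methods describe an outgrowth from collagenase-treated limb bone at 2% oxygen, a sort of the CD45-/Ter-119-/CD140a+/Sca-1+ cells on day 12 (given elsewhere in the study as day 10) and a week in culture at either oxygen level. The groups shared genotype, age and outgrowth and differed in oxygen after the sort, 2% (hypoxia) or 21% (normoxia). The labels, in contrast, place the sort after culture at the 2 oxygen levels. H3K27ac (an acetylated lysine of histone H3) and H3K4me3 (a trimethylated lysine of the same histone) were each profiled in 2 libraries per oxygen level, and 4 input libraries have no list of their own. Each mark and oxygen level gave 1 list made from both libraries. Because the lists hold called positions and a score, with no read counts, the sequencing depth and the spread between replicates are unknown, and no difference below has a replicate check or a test.

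Osteoblasts, which descend from MSCs, lay down a collagen matrix and mineralise it, and some of them are buried in it and become osteocytes. Sp7 acts early in this path, alkaline phosphatase (Alpl) is made as the cells begin to differentiate, and osteocalcin, Dmp1, Mepe, Phex and sclerostin belong mainly to mature osteoblasts and osteocytes. H3K4me3 marks promoters that are active or held ready, and H3K27ac marks active promoters and enhancers, so the marks describe the state of the chromatin and not the amount of RNA.

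The markers of the sorted cells were looked at first. H3K4me3 covered the transcription start of 11 of 12 stromal markers, and H3K27ac that of 9 in hypoxia and 8 in normoxia. Of 6 blood markers none had either mark over its start. Among 4 red-cell markers 2 starts lay under H3K4me3, as did 1 of 4 endothelial starts, with no H3K27ac on any of them. The cartilage markers Acan, Col2a1 and Sox9 had H3K4me3 over all 3 starts, and none of 3 fat or 3 muscle markers had a mark over its start.

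The bone genes split into a marked and an unmarked set, by whether any peak lay in the window. The split rests on the size of the window, and a peak in it can belong to a neighbour, as given below. Atf4, Sp7, Alpl, Sost and Spp1 had at least 1 peak in the window, and Ibsp, Dmp1, Mepe, Phex and Bglap had none in any list. The unmarked genes were thus 5 of 10, against a background of 27.6% of all protein-coding genes without a peak in the window, but Ibsp, Dmp1 and Mepe lie side by side on chromosome 5 and are not separate observations. H3K4me3 covered the start of 3 of the 10 genes (Alpl, Sp7 and Atf4) at both oxygen levels, against 55.9% of all genes. H3K27ac covered the start of 1 gene, Atf4, at both oxygen levels, against 35.2% of all genes. An H3K27ac peak lay anywhere in the window of 5 genes in hypoxia, against 55.5% of all genes, and of 4 in normoxia, against 55.1%. The members thus stood below all genes in marked starts, and their windows held H3K27ac about as often as others.

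**Figure D1:**
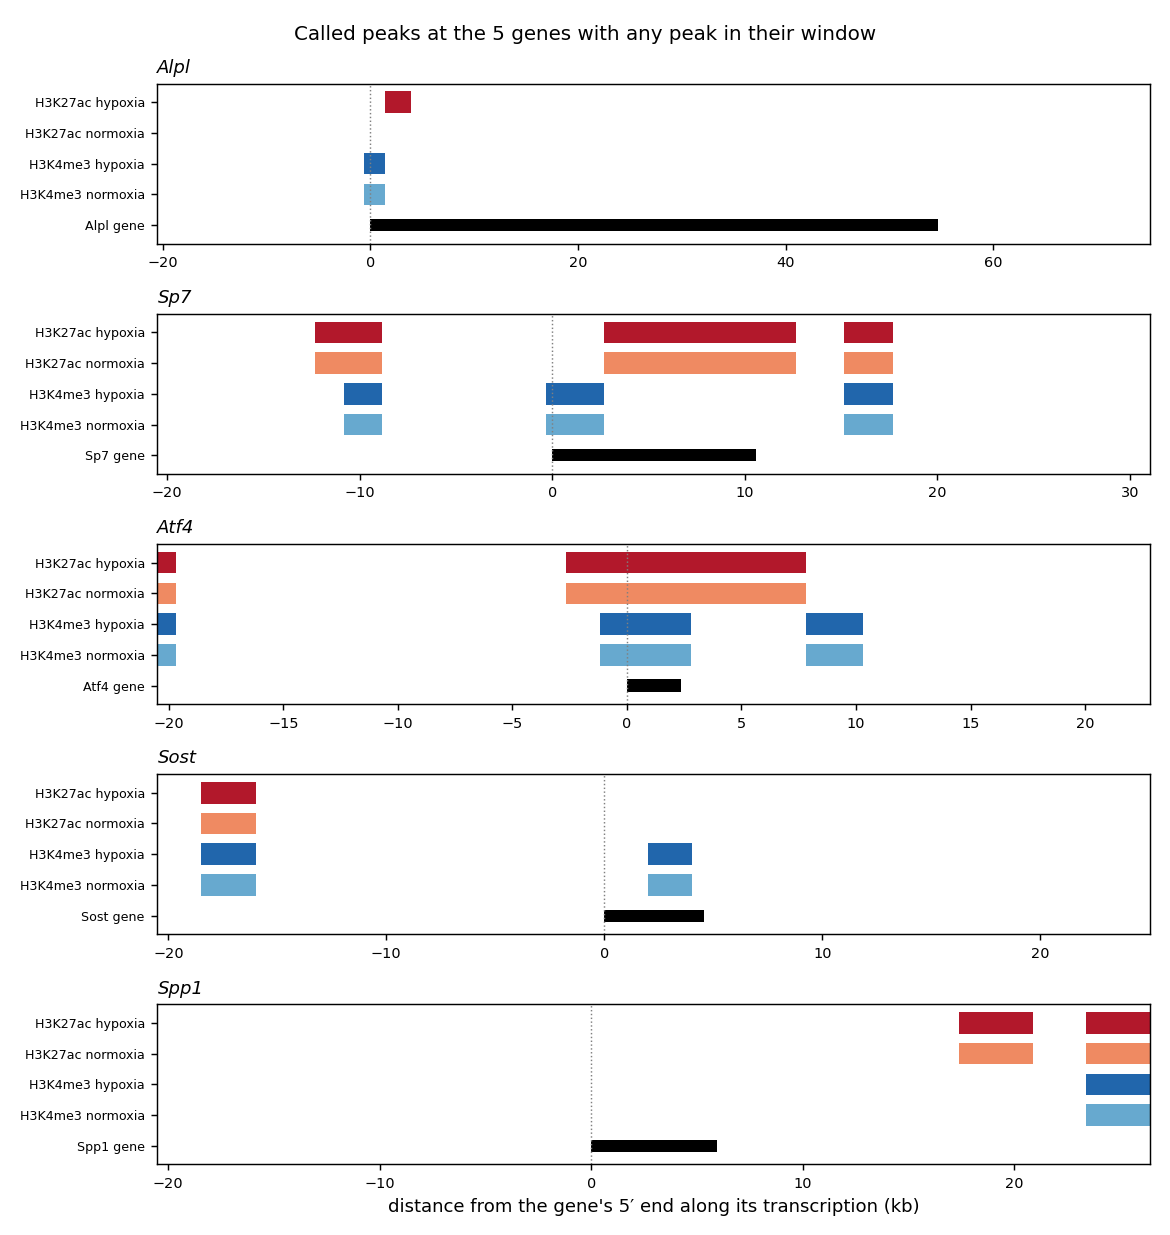
Called peaks of the 4 lists at Alpl, Sp7, Atf4, Sost and Spp1, the 5 genes with any peak in the window, drawn to scale against distance from the 5′ end of each gene along its transcription (kb); coloured bars are peaks and black bars are gene bodies. At Alpl, the H3K27ac bar 1383 bp past the start appears in the hypoxia row only, and at the other 4 genes the rows of the 2 oxygen levels show the same intervals.

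Across the windows there were 16 distinct intervals. Of these, 12 carried H3K27ac in hypoxia and 11 in normoxia, and 10 carried H3K4me3 at each oxygen level. Both marks were found together in 6 intervals, H3K27ac alone in 6 and H3K4me3 alone in 4. A start of a gene outside the list lay under 5 of the intervals, a start of a member under 3, and 8 covered no annotated start. Because any neighbour's promoter within 20000 bp is counted, the peaks are given below with the gene whose start they cover.

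Atf4, a transcription factor of the stress response that osteoblasts need for amino acid import and collagen synthesis, had the fullest set of marks at its own start. The gene lies on the plus strand of chromosome 15 from 80255184 to 80257541. A 4000 bp interval, chr15:80254001-80258000, covered the start and the whole gene and carried both marks at both oxygen levels. Its H3K27ac score, the authors' value per peak with no stated unit, was 136 in both lists, above 72.3% of the hypoxia list and 76.4% of the normoxia list. The scores ran from 50 to 160 or stood at 1000, and are given here with the share of their list that scored lower. Differences in score between the lists are given below as deposited, and they are not differences in signal height. Its H3K4me3 score was 1000 in both lists, a value with 85.9% of each H3K4me3 list below it.

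H3K27ac ran on from this interval on either side without H3K4me3. Upstream, chr15:80252501-80254000, ending 1183 bp before the start and inside the neighbouring gene Mief1, scored 97 in hypoxia and 61 in normoxia. Downstream, chr15:80258001-80263000, a 5000 bp interval over Rps19bp1, scored 78 in hypoxia and 77 in normoxia. The 3 touching intervals form an acetylated block from 80252501 to 80263000. The remaining peaks of the window belonged to neighbours: chr15:80233001-80235500 over the start of Mief1 scored 132 for H3K27ac in hypoxia and 92 in normoxia, and chr15:80263001-80265500 over the start of Rps19bp1 carried H3K4me3 alone, with a score of 1000 in both lists. H3K27ac covered 25.5% of the Atf4 window at both oxygen levels.

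Sp7 (osterix), a zinc-finger transcription factor needed for osteoblast formation, spans 102356606 to 102367182 of chromosome 15 (minus strand) and had the largest covered share, with H3K27ac over 31.6% of its window at both oxygen levels. Its start carried H3K4me3 without H3K27ac, and acetylation began at the next interval. That interval, chr15:102354501-102364500, runs from 2682 to 12681 bp past the start and holds 7895 bp of the gene, of which 2797 bp are exonic and 5098 bp intronic. It scored 139 in hypoxia, above 75.1% of the list, and 111 in normoxia, above 54.9%. Sp7 thus carried H3K27ac over most of the gene except its 5′ end.

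Upstream of Sp7, in intergenic sequence, a pair of touching intervals was acetylated at both oxygen levels. The nearer, chr15:102376001-102378000, 8818 bp before the start, scored 139 for H3K27ac in both lists. It also carried H3K4me3, with a score of 86 that lay above 8.11% of the hypoxia list, although no annotated start lies there. The farther, chr15:102378001-102379500, carried H3K27ac alone and scored 123 in hypoxia, above 55.4% of the list, and 62 in normoxia, above 15.2%. This fall of 61 was the largest among the members' intervals in both lists, and 5.79% of all H3K27ac intervals in both lists fell at least as far. That share can include drops from the highest score, which 3379 peaks held in hypoxia and 2802 in normoxia. No H3K27ac interval of the members held that score, so the share is not a like comparison. The last peak of the window, chr15:102349501-102352000, lay over the starts of Aaas and Gm36246, with H3K27ac scores of 139 in hypoxia and 113 in normoxia.

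The central 300 bases of the farther upstream interval are shown because its H3K27ac score differed most between the lists. They are given on the plus strand of GRCm38.p6 (the RefSeq assembly behind mm10), chr15:102378601-102378900, with capitals at the TATA box core, spelled TATAAA, and at CACGTG, a palindrome that holds ACGTG, the hypoxia response element core, on each strand.
Sp7 upstream interval: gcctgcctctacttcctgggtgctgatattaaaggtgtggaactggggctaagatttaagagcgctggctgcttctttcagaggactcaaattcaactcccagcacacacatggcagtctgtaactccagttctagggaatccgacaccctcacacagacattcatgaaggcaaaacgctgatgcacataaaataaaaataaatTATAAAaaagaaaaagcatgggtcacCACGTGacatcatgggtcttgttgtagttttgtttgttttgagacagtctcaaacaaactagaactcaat
Over the centres of 15202 H3K27ac peaks of the hypoxia list, 18.8% held ACGTG and 11.9% held TATAAA on either strand. Soft-masked repeats made up 45.6% of this interval.

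Alpl encodes tissue-nonspecific alkaline phosphatase, the enzyme that breaks down pyrophosphate and so lets mineral form. The gene spans 137741733 to 137796384 of chromosome 4, minus strand. H3K4me3 covered its start in chr4:137795001-137797000, with a score of 129 in both lists, at the median of those lists (129). H3K27ac was not called over the start at either oxygen level. The interval that touches it on the gene side, chr4:137792501-137795000, lies wholly in an intron, 1384 to 3883 bp past the start, and carried H3K27ac in hypoxia alone. In normoxia the nearest H3K27ac peak to the start was 116116 bp away.

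Peaks found at 1 oxygen level without overlap in the other were rare among all genes as well. A hypoxia-only H3K27ac peak lay in the window of 1 of the 10 genes, Alpl, against 4.74% of all genes, and a normoxia-only peak in the window of 0, against 1.16%. H3K4me3 peaks found at 1 oxygen level lay in the window of 0 members, against 0.0644% of all genes. In the score, the Alpl intron peak was weak. Its 53 lay near the lowest value of the list, 50, with 3.5% of the hypoxia list scoring lower. Within the 589 hypoxia-only H3K27ac peaks, whose median score was 58, 22.2% scored lower, and it was narrower (2500 bp) than the median of 3500 bp. With a score this near the lower limit, a peak just above it in one list and just below it in the other cannot be told apart from a true difference in the mark.

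The arrangement at Alpl and Sp7, a start under H3K4me3 without H3K27ac beside a touching acetylated interval, was uncommon. Of 4734 genes with H3K4me3 and no H3K27ac over the start, 148 (3.13%) had an H3K27ac peak touching that interval, Alpl and Sp7 among them. The touching peak was hypoxia-only at 8 genes (0.169%), of which Alpl was one. The arrangement was defined from Alpl and Sp7, which are counted in these shares. The shares thus describe how often it occurs and are no evidence that either gene is special. Seen from the peaks, 55 of the 589 hypoxia-only H3K27ac peaks (9.34%) touched an interval with H3K4me3 alone.

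The middle of the Alpl intron peak is shown because it is the sole interval at these genes that differed in its call between the oxygen levels. The 300 bases are from the plus strand of GRCm38.p6, chr4:137793601-137793900. Capitals are at CACGTG and at ACCACA, the reverse complement of TGTGGT, which is the core of the motif of Runt factors such as Runx2.
Alpl intron peak: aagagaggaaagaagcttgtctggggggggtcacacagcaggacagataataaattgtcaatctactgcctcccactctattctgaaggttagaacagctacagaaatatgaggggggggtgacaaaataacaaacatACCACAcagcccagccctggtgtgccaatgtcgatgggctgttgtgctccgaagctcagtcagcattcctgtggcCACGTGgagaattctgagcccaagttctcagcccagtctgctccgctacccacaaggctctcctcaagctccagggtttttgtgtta
The core TGTGGT was in 17.9% of the centres of all H3K27ac peaks of the hypoxia list and in 21.6% of those of the 589 hypoxia-only peaks, and ACGTG in 18.8% and 15.3%. Both motifs are thus common in such windows, and a match describes the letters alone.

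**Figure D2:**
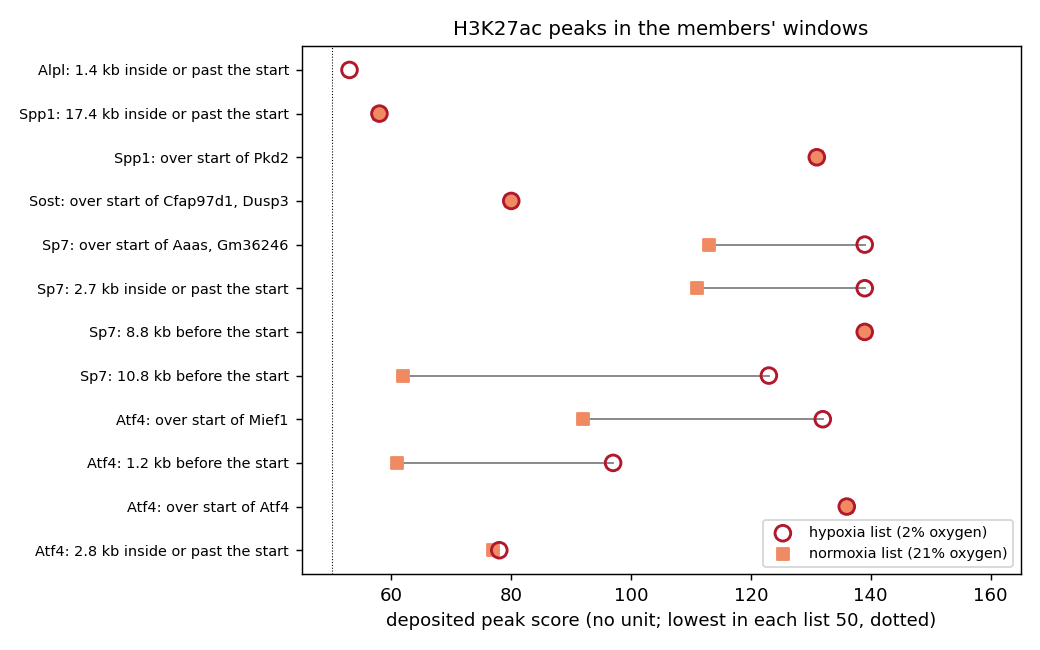
Deposited scores of the 12 H3K27ac intervals in the windows of the 10 genes, with the hypoxia list as open circles and the normoxia list as filled squares joined by a line; the score has no unit, and the dotted line marks the lowest score of each list, 50. The Alpl peak is in the hypoxia list alone, and the scores that fall from hypoxia to normoxia belong to Sp7 and Atf4 windows.

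Scores were compared between the oxygen levels at the 11 H3K27ac intervals found in both lists. They were lower in normoxia at 6, higher at 0 and equal at 5. The lists themselves differ, with a median score of 111 in hypoxia and 102 in normoxia. Over all 14614 such intervals 39.9% were lower in normoxia, 16.6% were higher and 43.6% were equal, with a median change of 0. The median change over the members' 11 was -1, and their median score was 131 in hypoxia and 92 in normoxia. All 6 falls lay in the windows of Sp7 and Atf4, with falls of 26, 28 and 61 at Sp7 and of 1, 36 and 40 at Atf4. Neighbouring intervals are called in 1 joint fit, and 2 of the 6 falls were at the promoters of Aaas and Mief1, so the count covers 2 regions of chromosome 15. The start interval of Atf4 and the nearer upstream interval of Sp7, both with H3K4me3 too, had equal scores in the lists, which left them above 76.4% and 78.8% of the normoxia list against 72.3% and 75.1% of the hypoxia list. H3K4me3 scores were identical between the oxygen levels at the members' 10 intervals and at all 14600 intervals shared by the lists (100%), so they hold no information on a change.

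Spp1 encodes osteopontin, a phosphoprotein of bone matrix that binds mineral and integrins and is also made by many cells outside bone. It belongs with Ibsp, Dmp1 and Mepe to a cluster of related matrix protein genes (the SIBLING family) on chromosome 5. The gene, from 104435118 to 104441050 on the plus strand, had no peak over its start or body. The nearest was an intergenic H3K27ac interval, chr5:104452501-104456000, 17382 bp past the start, with a low score of 58 in both lists (9.68% of the hypoxia and 10.5% of the normoxia list scored lower). The other peak of the window, chr5:104458501-104462000, lay over the start of Pkd2, a gene for a calcium channel, with H3K27ac at 131 and H3K4me3 at 127 in both lists.

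The other 3 genes of the cluster had no mark within 20000 bp. Ibsp encodes bone sialoprotein, which promotes the first mineral crystals, and lies from 104299171 to 104311469. Mepe, from 104325329 to 104338611, encodes a matrix phosphoglycoprotein made by osteocytes. Both sat in the same stretch without a peak of any list, from 104242001 to 104390500, of 148500 bp. Dmp1, from 104202613 to 104214102, encodes an acidic matrix protein of osteocytes that acts in mineralisation and in phosphate balance. It lay in a stretch of 178000 bp that also held Dspp, for non-collagenous proteins of dentin. Stretches this long or longer made up 17.7% and 14.7% of the 18526 stretches between peaks in the genome. These shares are over all stretches, many too short to hold a gene, and the stretches here were picked because they hold one. The shares are therefore no measure of rarity among genes.

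These stretches were bounded by H3K27ac and not by promoters of the cluster. The peak chr5:104239001-104242000 between Dmp1 and Ibsp, with a score of 77 in both lists, was the nearest H3K27ac to either start, at 36387 bp from Dmp1 and 57170 bp from Ibsp. Between Mepe and Spp1, the interval chr5:104390501-104409500, 65171 bp from the start of Mepe, scored 115 in hypoxia and 121 in normoxia. From there to the intergenic peak beyond Spp1, a stretch of 43000 bp held Spp1 and no peak. No H3K4me3 was called in the cluster itself, since the nearest to Ibsp and to Mepe was the one over Pkd2, at 159329 and 133171 bp.

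Phex encodes a membrane endopeptidase of osteoblasts and osteocytes whose loss raises the phosphate-wasting hormone Fgf23. It is the longest of the 10 genes, 253238 bp on chromosome X (157162075 to 157415312, minus strand), and it had no peak in a window of 293238 bp. It stood in a stretch without a peak of 1865500 bp, a length reached by 166 of the 18526 stretches (0.896%), and was the only protein-coding gene wholly inside it. Since Phex could only lie in a stretch longer than itself, the share over all stretches is no measure of rarity. The nearest H3K4me3 lay 75188 bp from its start and the nearest H3K27ac 181688 bp, at both oxygen levels.

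Bglap encodes osteocalcin, the vitamin K-dependent protein of bone matrix that marks mature osteoblasts. It spans 88383501 to 88384464 of chromosome 3 (minus strand), next to its close copies Bglap2 and Bglap3, and all 3 stood in a stretch of 71000 bp without a peak. The nearest peak, chr3:88409001-88411000 at the starts of Pmf1 and Slc25a44 (named after its position was seen), carried both marks and lay 24536 bp from the start, just outside the window. Short reads from identical stretches of such copies cannot be placed, and the authors removed reads of low mapping quality. Of the 934 words of 31 bases in Bglap, 514 (55.0%) occurred elsewhere in the genome, and 35.2% of those in its window did.

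At the other 4 genes without a peak, repeated words were fewer than at Bglap. In the gene body they made up 0.815% of the Ibsp body, 3.38% of Dmp1, 11.4% of Mepe and 19.8% of Phex. Among the marked genes they made up 0.0% of Atf4 and Sost, 1.22% of Spp1, 5.88% of Sp7 and 6.0% of Alpl. Bglap was thus the sole member with most of its body in repeated words. Over the whole windows, the 5 genes without a peak stood at 11.3% (Dmp1), 14.9% (Mepe), 18.9% (Phex), 24.4% (Ibsp) and 35.2% (Bglap). The 5 genes with a peak stood at 4.27% (Sost), 5.53% (Alpl), 8.11% (Spp1), 9.08% (Sp7) and 12.8% (Atf4). Repeated words in the window were thus more frequent at the genes without a peak, with an overlap between Dmp1 and Atf4, and their part in the missing calls was not tested.

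**Figure D3:**
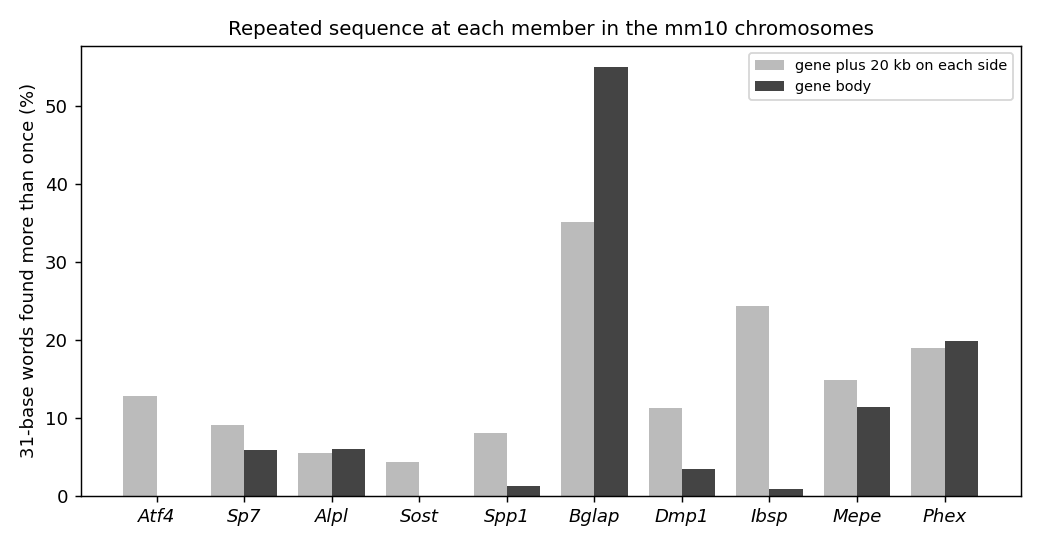
Share of 31-base words found more than once in the chromosomes of mm10 (%, from 0), in the window (light bars) and in the gene body (dark bars) of each of the 10 genes. Bglap reaches 55.0% in its body and the other bodies lie at or below 19.8%, and the windows run from 11.3 to 35.2% at the 5 genes without a peak and from 4.27 to 12.8% at the others.

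Sost encodes sclerostin, a Wnt inhibitor secreted by osteocytes, and spans 101962458 to 101967015 of chromosome 11, minus strand. Its start carried neither mark, but an H3K4me3 peak stood inside the gene. This interval, chr11:101963001-101965000, began 2014 bp past the start and held 1267 bp of exon and 733 bp of intron. It scored 132 in both lists, above 61.0% of each, and no annotated start lies in it. The other interval, chr11:101983001-101985500, 15985 bp upstream, covered the starts of Dusp3 and Cfap97d1, with H3K27ac at 80 and H3K4me3 at 1000 in both lists. It was the sole H3K27ac peak in the Sost window.

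**Figure D4:**
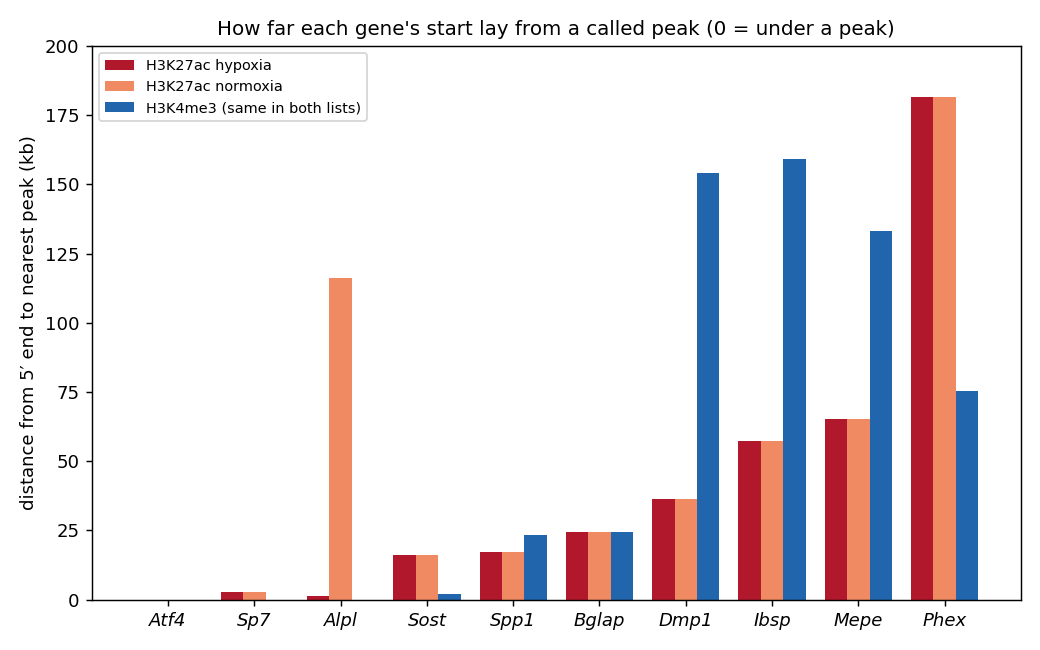
Distance in kb from the 5′ end of each of the 10 genes to the nearest called peak, for H3K27ac in hypoxia, H3K27ac in normoxia and H3K4me3, whose distances were the same in both lists; 0 means that the start lies under a peak. At Alpl the H3K27ac distance is 1383 bp in hypoxia and 116116 bp in normoxia, and no other gene differs between the oxygen levels.

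Ordered by the distance from the start to the nearest H3K27ac in hypoxia, the genes ran from Atf4 (0 bp) through Alpl (1383 bp), Sp7 (2681 bp), Sost (15985 bp) and Spp1 (17382 bp) to Bglap (24536 bp), Dmp1 (36387 bp), Ibsp (57170 bp), Mepe (65171 bp) and Phex (181688 bp). The order does not follow the roles of the genes throughout, since the osteocyte gene Sost stood ahead of the matrix gene Spp1, through a peak at the starts of Dusp3 and Cfap97d1. Boundaries fall on multiples of 500 bp, so distances closer than that are not separated. In normoxia the distances were the same except at Alpl, whose 116116 bp placed it between Mepe and Phex.

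Promoter sequence was set beside the marks, because CpG-rich promoters often carry H3K4me3 whatever their activity. RefSeq promoter windows of 300 bases (250 before and 50 after the start, GRCm38.p6) matched 9 of the 10 genes, all but Sp7. Over 32619 windows the median ratio of observed to expected CpG was 0.79 where the start lay under H3K4me3 and 0.21 where it did not. H3K4me3 covered 90.5% of the starts with a ratio of at least 0.6 and 14.6% of those below it. The members followed this split. Atf4 (0.84) and the 5′ start of Alpl (0.72) lay under H3K4me3, and the windows of the other matched genes, from 0.17 at Bglap to 0.42 at 1 of the 2 Dmp1 starts, did not. A second Alpl start, inside the gene, had a ratio of 0.18 and no H3K4me3.

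Of the promoters, 4 are shown 5′ to 3′ on the strand of the gene, the 2 under H3K4me3 and those of the matrix genes Spp1 and Bglap, which lay under no peak. Capitals mark the motifs found. At Atf4 these are GCGTG (reverse complement CACGC), a hypoxia response element core. At Alpl they are GGGCGG (reverse complement CCGCCC), the GC box bound by Sp factors, with 2 of 3 copies overlapping. At Spp1 and Bglap they are TATAAA and ACCACA.
Atf4, chr15:80254934-80255233, plus strand: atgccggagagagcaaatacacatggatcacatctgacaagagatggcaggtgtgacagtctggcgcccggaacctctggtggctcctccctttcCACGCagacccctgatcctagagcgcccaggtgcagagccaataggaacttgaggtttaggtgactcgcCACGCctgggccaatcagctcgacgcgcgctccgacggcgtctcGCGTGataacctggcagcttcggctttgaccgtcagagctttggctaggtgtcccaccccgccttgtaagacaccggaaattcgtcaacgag
Alpl, chr4:137796335-137796634, minus strand: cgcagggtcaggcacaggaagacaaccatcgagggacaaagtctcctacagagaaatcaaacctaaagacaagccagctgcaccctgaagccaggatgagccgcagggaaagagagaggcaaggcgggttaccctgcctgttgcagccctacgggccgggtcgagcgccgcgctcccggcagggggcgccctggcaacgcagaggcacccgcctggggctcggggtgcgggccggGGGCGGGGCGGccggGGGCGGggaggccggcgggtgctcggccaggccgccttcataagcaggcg
Spp1, chr5:104434861-104435160, plus strand: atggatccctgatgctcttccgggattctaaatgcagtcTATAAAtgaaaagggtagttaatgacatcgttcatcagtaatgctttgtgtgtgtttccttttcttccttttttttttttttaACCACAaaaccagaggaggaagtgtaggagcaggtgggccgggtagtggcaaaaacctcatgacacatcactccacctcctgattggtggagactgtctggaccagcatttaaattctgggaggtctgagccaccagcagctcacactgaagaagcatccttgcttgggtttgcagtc
Bglap, chr3:88384417-88384716, minus strand: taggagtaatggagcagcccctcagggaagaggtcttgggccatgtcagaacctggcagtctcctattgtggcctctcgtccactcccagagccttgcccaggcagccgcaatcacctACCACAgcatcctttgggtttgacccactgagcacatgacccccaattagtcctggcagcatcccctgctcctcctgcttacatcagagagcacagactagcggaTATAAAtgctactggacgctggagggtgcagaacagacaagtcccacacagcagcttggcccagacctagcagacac
The Atf4 and Alpl windows held 22 and 26 CpGs, and those of Spp1 and Bglap 3 and 4.

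In the same search, on both strands of all 32619 windows, GCGTG was found in 32.6%, GGGCGG in 35.9%, TATAAA in 13.7%, TGTGGT in 16.6% and ACGTG in 19.8%. The C/EBP-ATF element TGATGCAA (reverse complement TTGCATCA) was found in 0.88%. The windows of Ibsp, Mepe and Bglap each held TATAAA, as did 1 of the 2 windows of Spp1 and of Alpl. Mepe, Bglap and 1 of the 2 windows of Spp1 and of Dmp1 held TGTGGT, and the other Dmp1 window held ACGTG. The windows of Phex and Sost held none of the 6 motifs.

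**Figure D5:**
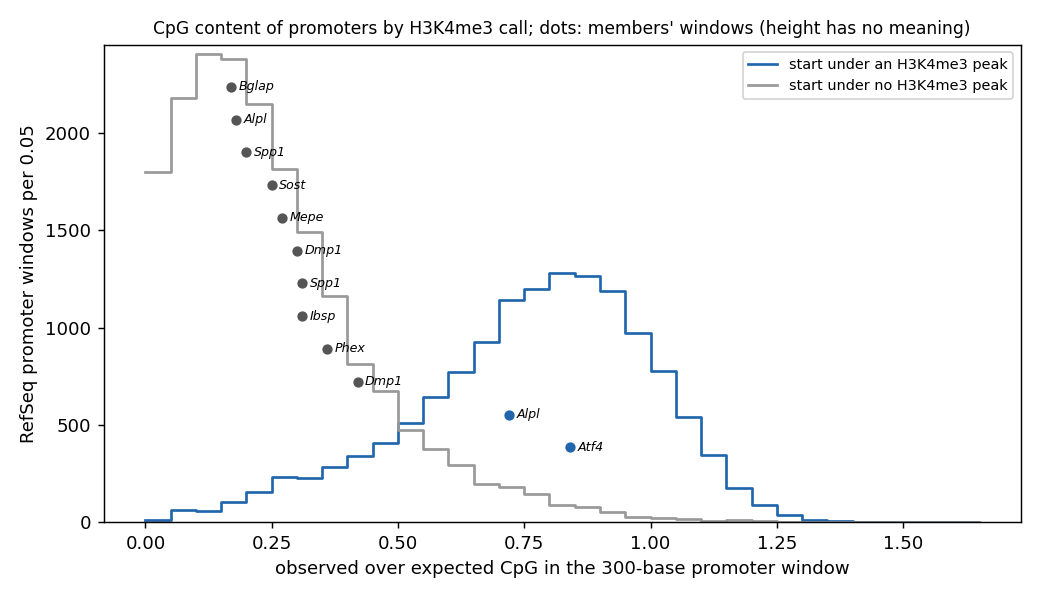
Numbers of RefSeq promoter windows in steps of 0.05 of observed over expected CpG, with windows whose start lies under an H3K4me3 peak in blue and the others in grey; the dots give the ratio of each window of the 9 matched genes, and their height has no meaning. Atf4 at 0.84 and 1 Alpl start at 0.72 fall in the blue distribution, and the other windows lie at or below 0.42.

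To place the 10 genes among other genes of bone, 55 further genes were read in the same way. H3K4me3 covered the start of 39 of the 55, against 3 of the 10 members and 55.9% of all genes. H3K27ac covered that of 31 in hypoxia and 30 in normoxia, against 1 of the 10 members at each oxygen level and 35.2% of all genes in hypoxia. By role, H3K4me3 covered 12 of 14 regulators, 10 of 13 genes of mineral and phosphate handling, 9 of 12 osteocyte and remodelling genes and 8 of 16 other matrix genes. In the same order, H3K27ac in hypoxia covered 10 of 14, 6 of 13, 5 of 12 and 10 of 16. The matrix genes were thus last for H3K4me3 but not for H3K27ac. Neither mark covered the start of 11 of the 55 genes in any list, against 7 of the 10 members and 43.0% of all genes. The 11 genes included Bglap2, Bglap3, Dspp and Postn (matrix proteins), Ahsg (fetuin-A), Enpp3 (an ectonucleotidase) and Vdr (the vitamin D receptor), and Dkk1, Fgf23 and Ostn (secreted factors). Bglap2 and Bglap3 share a stretch without a peak with the member Bglap, and Dspp shares one with Dmp1, so the sets are not fully separate. The lists were written with results of these data known, and the contrast is given as counts.

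A hypoxia-only H3K27ac peak lay in the window of 4 of the 55 genes (7.27%) and a normoxia-only peak in that of 0, against the 4.74% and 1.16% of all genes given above. The 4 genes were Tnc, for the matrix glycoprotein tenascin C, with the peak over its start and a score of 52; Ddit3, for the stress-response factor Chop, 3226 bp from the start with a score of 51; Omd, for the matrix proteoglycan osteomodulin, 27038 bp away with a score of 55; and Smpd3, for a sphingomyelinase needed for mineralisation, 43987 bp away with a score of 57. Their scores of 51 to 57 stood near the lowest value of the list, as that of the Alpl peak did.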

How the data were processed

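Reads were mapped by the authors to mm10 with bowtie2 and stripped of duplicates with Picard, as the methods state. Peaks came from chromstaR, a hidden Markov model fitted jointly to the libraries, in differential mode between the oxygen levels and with a limit on mapping quality. The deposited files are 4 lists with the position and score of each peak. The definition of the score, which the authors deposited without a unit, is not given in the sources used here, and it was given as a rank within its list and, for intervals in both lists, as the plain difference between them, which is not a difference in signal height. The lists held 15203 (hypoxia) and 14832 (normoxia) H3K27ac peaks and 14606 and 14603 H3K4me3 peaks, with all boundaries at multiples of 500 bp. Together they form 22555 intervals, of which 0 overlap another in part. The input libraries were not analysed here.

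Positions are 1-based. The protein-coding genes of GENCODE M21 on 20 chromosomes (1 to 19 and X) were used, with the 5′ end of the gene as its start. A hypoxia-only peak had no base in common with the normoxia list of its mark, and the reverse for a normoxia-only peak. Counts of members with a given call were set beside the share of all 21755 genes with the same call. No test was run, since each group has 1 list. Promoters came from RefSeq (GRCm38.p6), and the 12 windows of the members were checked base by base against the genome of that assembly, with 0 differing. The members and lists were chosen with earlier results of these data known. All 10 genes were named, with genes whose start lay under a peak of a member's window and, of the other bone genes, those with a hypoxia-only or normoxia-only peak or with neither mark over the start, except for an item that is not reported here. Of 56 symbols of other bone genes 55 matched the annotation. The scripts were tested on simulated peaks. Alternatives were the gene body alone, 50000 bp on each side, leaving out the lowest-scoring 25% of each list, joining peaks within 1000 bp, starts within 1000 or 2500 bp of a peak, any annotated start, and leaving out peaks over starts of other genes. Python 3.11.15, numpy 2.4.6, pandas 2.3.3 and pysam 0.24.0 were used.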

Additional observations from a re-analysis of the deposited data

How the results depend on the processing

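Of the values recomputed under the alternatives, 38 stayed within 1.5 times of the reported count or within the 95% interval of the median, and 16 moved. Counts and medians have no direction, so a reversal could not be found. The intervals of the median H3K27ac score were wide, 78 to 139 in hypoxia and 61 to 136 in normoxia. They treat neighbouring peaks as independent, so a median that stayed inside says little. The size of the window set most of the counts. In the gene body alone, H3K27ac peaks numbered 3 in hypoxia and 2 in normoxia, at 3 and 2 genes, and H3K4me3 peaks 4 in each list. With 50000 bp on each side, H3K27ac peaks numbered 25 and 23, at 7 and 6 genes, and H3K4me3 peaks 19 in each list. Without peaks over starts of other genes, 7 H3K27ac peaks were left in normoxia and 5 H3K4me3 peaks in each list. Within 2500 bp of the start, H3K27ac in hypoxia was counted at 2 genes, Atf4 and Alpl. Shares of all genes were not computed under these alternatives. The counts here and in the next paragraph therefore have no background beside them, and a wider window adds peaks at any gene.

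The count of genes with a peak called at 1 oxygen level was 2 with 50000 bp on each side, which adds Bglap through chr3:88411001-88414000 (hypoxia-only, score 55). That peak lay 26536 bp from the Bglap start and touched the interval at the starts of Pmf1 and Slc25a44. Its score was near the lowest value of the list, 50. The count was also 2 without the lowest-scoring 25% of peaks, and the genes then differed. Alpl was lost, since its score of 53 lies under the first quartile of 73. Sp7 and Atf4 entered, since the normoxia scores of chr15:102378001-102379500 (62) and chr15:80252501-80254000 (61) lie under the quartile of that list, 71.

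No paired analysis was possible because each mark and oxygen level has 1 list made from both libraries, and leaving out a replicate was not possible either. Depth and the height of the signal are not known from called positions, so a gene without a peak is one where no mark was detected at this unknown depth.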
